A study of Mus musculus with 12 samples.

Results

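Cells of mammals answer a change of temperature in opposite ways. When they cool by a few degrees, the RNA-binding proteins Rbm3 and Cirbp accumulate, and when they are heated or their proteins unfold, heat shock factor 1 switches on chaperones that hold, refold or hand on damaged proteins. The 10 genes described here are these opposed arms of the response: 2 cold-inducible genes, Rbm3 and Cirbp, and 8 chaperone genes, Hspa8, Hsph1, Hsp90aa1, Hspa1a, Hspa1b, Hspb1, Dnajb1 and Hspe1. They were found by symbol among the 78317 gene IDs of the counted annotation, and each symbol matched 1 ID. The set was chosen by knowledge of these arms and selected on values of this same comparison, among them the higher Rbm3 level in one group, so differences between the groups are a description and no independent support.

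RNA was sequenced from snap-frozen heart ventricle of 12 uninjured C57BL/6J mice. In the injured-sire group the fathers had received a cardiac cryoinjury, a wound made by freezing, at postnatal day 1 (6 libraries, replicates 12 to 17, from 3 males and 3 females), and in the uninjured-sire group the fathers were not injured (6 libraries, replicates 18 to 23, from 4 males and 2 females). Labels called the offspring adult and also dated collection to 3 wpp, with housing at 20 to 24 °C under a 12 h light cycle. They gave no body temperature, hour of collection, sire, litter or sex for single animals, and animals of 1 litter would make the errors given here too small. Replicate 16, an outlier by the submitters' account, was left out of the comparison, which therefore set 5 against 6 libraries, and its values are given apart.

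Libraries held 30537315 to 42090257 counts. The cardiomyocyte markers Myh6, Tnnt2, Tnni3, Actc1, Ryr2 and Pln were abundant, at a summed 57708 to 72234 CPM (counts scaled to a common library size with TMM factors, which correct for composition). In the comparison, 18 of 17130 genes (0.105%) passed the edgeR quasi-likelihood test at a Benjamini-Hochberg adjusted p below 0.05, 9 higher (0.0525%) and 9 lower (0.0525%) in injured-sire hearts. The injured-sire libraries had fewer genes with at least 1 count (21990 to 24146, against 23711 to 26788). In bulk tissue, a change in RNA per cell and a change in the number of cells of a type cannot be told apart.

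The stretch just upstream of each transcription start is where heat shock factors and the Sp1 family are known to bind, and RefSeq windows of the 250 bases before the start (build GRCm38.p6) were at hand for 7 of the 10 genes. Rbm3, Hspa8 and Hsp90aa1 had no entry, and for Cirbp, Hsph1 and Dnajb1 the first of 2 listed starts was taken. Printed here are the 1 window of the cold arm, 4 chaperone windows with a heat shock pair, and that of Dnajb1, which has none. Hspa1b, nearly identical to Hspa1a, is not printed. They are written 5′ to 3′ on the gene's strand, and capitals mark inverted pairs of the heat shock unit GAA (GAANNTTC or TTCNNGAA, each its own reverse complement) or, in Cirbp, the octamer TCCCCGCC known as a mild cold response element.
Cirbp (chr10:80167589-80167838, plus strand): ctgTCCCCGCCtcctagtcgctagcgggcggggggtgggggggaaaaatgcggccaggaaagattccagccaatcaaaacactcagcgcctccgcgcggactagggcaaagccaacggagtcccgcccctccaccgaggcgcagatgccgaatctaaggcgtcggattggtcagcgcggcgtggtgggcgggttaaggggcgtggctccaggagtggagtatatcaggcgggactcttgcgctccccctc
Hspe1 (chr1:55087898-55088147, plus strand): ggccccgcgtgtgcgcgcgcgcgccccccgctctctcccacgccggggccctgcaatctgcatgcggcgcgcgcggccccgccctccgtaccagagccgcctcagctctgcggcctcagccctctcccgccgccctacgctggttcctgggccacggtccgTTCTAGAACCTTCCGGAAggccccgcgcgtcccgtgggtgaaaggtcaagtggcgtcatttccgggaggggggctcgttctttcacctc
Hspb1 (chr5:135887669-135887918, plus strand): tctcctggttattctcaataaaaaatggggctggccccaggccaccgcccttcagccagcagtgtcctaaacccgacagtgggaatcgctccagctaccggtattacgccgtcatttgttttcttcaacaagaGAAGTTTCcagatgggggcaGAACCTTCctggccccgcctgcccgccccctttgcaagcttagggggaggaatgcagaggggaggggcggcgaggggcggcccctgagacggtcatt
Hspa1a (chr17:34972157-34972406, minus strand): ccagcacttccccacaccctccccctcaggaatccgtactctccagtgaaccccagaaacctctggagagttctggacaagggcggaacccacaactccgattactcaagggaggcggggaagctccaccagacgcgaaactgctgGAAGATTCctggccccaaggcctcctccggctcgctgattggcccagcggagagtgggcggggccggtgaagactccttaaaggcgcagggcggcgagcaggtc
Hsph1 (chr5:149636337-149636586, minus strand): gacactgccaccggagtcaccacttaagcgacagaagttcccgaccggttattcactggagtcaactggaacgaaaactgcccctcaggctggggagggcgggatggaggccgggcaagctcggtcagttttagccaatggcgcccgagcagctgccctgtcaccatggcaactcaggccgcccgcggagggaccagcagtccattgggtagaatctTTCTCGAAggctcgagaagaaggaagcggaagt
Dnajb1 (chr8:83607925-83608174, plus strand): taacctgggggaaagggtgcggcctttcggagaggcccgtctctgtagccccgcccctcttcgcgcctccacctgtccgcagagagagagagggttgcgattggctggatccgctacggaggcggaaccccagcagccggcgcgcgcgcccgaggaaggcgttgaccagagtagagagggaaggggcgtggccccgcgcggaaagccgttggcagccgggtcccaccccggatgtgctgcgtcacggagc

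Most chaperone windows held an inverted pair of the heat shock unit. At least 1 inverted heat shock pair stood in 5 of the 6 chaperone windows and in none of the Cirbp window, against 12.9% of the 27025 genes with such a window. Hspe1 had an unbroken run of 4 alternating units, at -89 to -72 from the start, and 3 such units in a row were found in 0.4% of windows. Hspb1 had pairs at -117 to -110 and at -97 to -90, Hspa1a and Hspa1b 1 pair at -104 to -97, and Hsph1 1 pair at -33 to -26. The window of Dnajb1 held neither form. The octamer, searched on both strands, stood at -247 to -240 in Cirbp and, as its reverse complement, at -137 to -130 in Hspa1a and Hspa1b, against 4.7% of windows, so it did not mark the cold arm alone. A match describes letters only and shows no binding.

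Rbm3 (ENSMUSG00000031167, chromosome X, 8005214 to 8012119, minus strand, GRCm39) encodes a small RNA-binding protein of the glycine-rich class that is induced by mild cooling and by low oxygen. It stood at 75.6, 78.1, 79.8, 69.1 and 91.9 CPM in injured-sire replicates 12, 13, 14, 15 and 17, and at 54.0 to 71.2 CPM (median 56.9) in the 6 uninjured-sire libraries. Of the 5 injured-sire hearts, 4 lay above every uninjured-sire heart, and the groups overlapped only through injured-sire replicate 15 and uninjured-sire replicate 22. Means were 78.9 ± 8.33 CPM (SD, n = 5) and 59.6 ± 6.98 CPM (SD, n = 6), and differed by 0.40 ± 0.0791 (SE) in log2, or 1.32-fold with a 95% interval of 1.18 to 1.48. Rbm3 was the 1 member of 10 past the threshold over all genes (edgeR adjusted p = 0.0484), beside 0.105% of all genes tested. By direction, 1 member was called higher and 0 lower, beside 0.0525% of all genes each way, and by p Rbm3 ranked as number 16. The left-out replicate 16 had 84.3 CPM, also above all uninjured-sire hearts.

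Cirbp (ENSMUSG00000045193, chromosome 10, 80001819 to 80008620, plus strand), the other cold-inducible RNA-binding protein, is known to stabilise messenger RNAs, that of Clock among them, and to follow the daily cycle of body temperature. Its levels were 82.9, 91.8, 65.7, 75.5 and 65.6 CPM in injured-sire replicates 12, 13, 14, 15 and 17. The uninjured-sire libraries ran from 54.3 to 72.9 CPM, with a median of 63.0. Thus 3 injured-sire hearts lay above every uninjured-sire heart, and replicates 14 and 17 sat inside the uninjured-sire range, although all 5 exceeded the uninjured-sire median. Means were 76.3 ± 11.3 CPM (SD, n = 5) against 63.4 ± 6.02 CPM (SD, n = 6). The log2 fold change of 0.27 ± 0.0863 (SE) did not pass over all genes (edgeR adjusted p = 0.307). Replicate 16 had 85.6 CPM.

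Although both cold genes had higher means in injured-sire hearts, their extremes fell in different injured-sire animals. Replicate 17 had the highest Rbm3 and the lowest Cirbp of the injured-sire libraries compared, and replicate 13 the highest Cirbp with a middling Rbm3. After each group's mean was removed, their log2 CPM over the 11 libraries had a Pearson r of 0.06 and a Spearman rho of 0.00. Within groups r was -0.48 over the 5 injured-sire and 0.68 over the 6 uninjured-sire libraries. These correlations are descriptions over few libraries that share a scaling, with no test. Averaged over both genes and centred on the 11-library mean, the cold arm ran from 0.0871 to 0.316 on the log2 scale in injured-sire hearts. In uninjured-sire hearts it ran from -0.318 to 0.0837, where the highest was replicate 22. Each gene on its own overlapped between the groups, and both were selected on this comparison. How often the means of other gene pairs part in this way was not tested, so the averages are a description only.

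**Figure D1:**
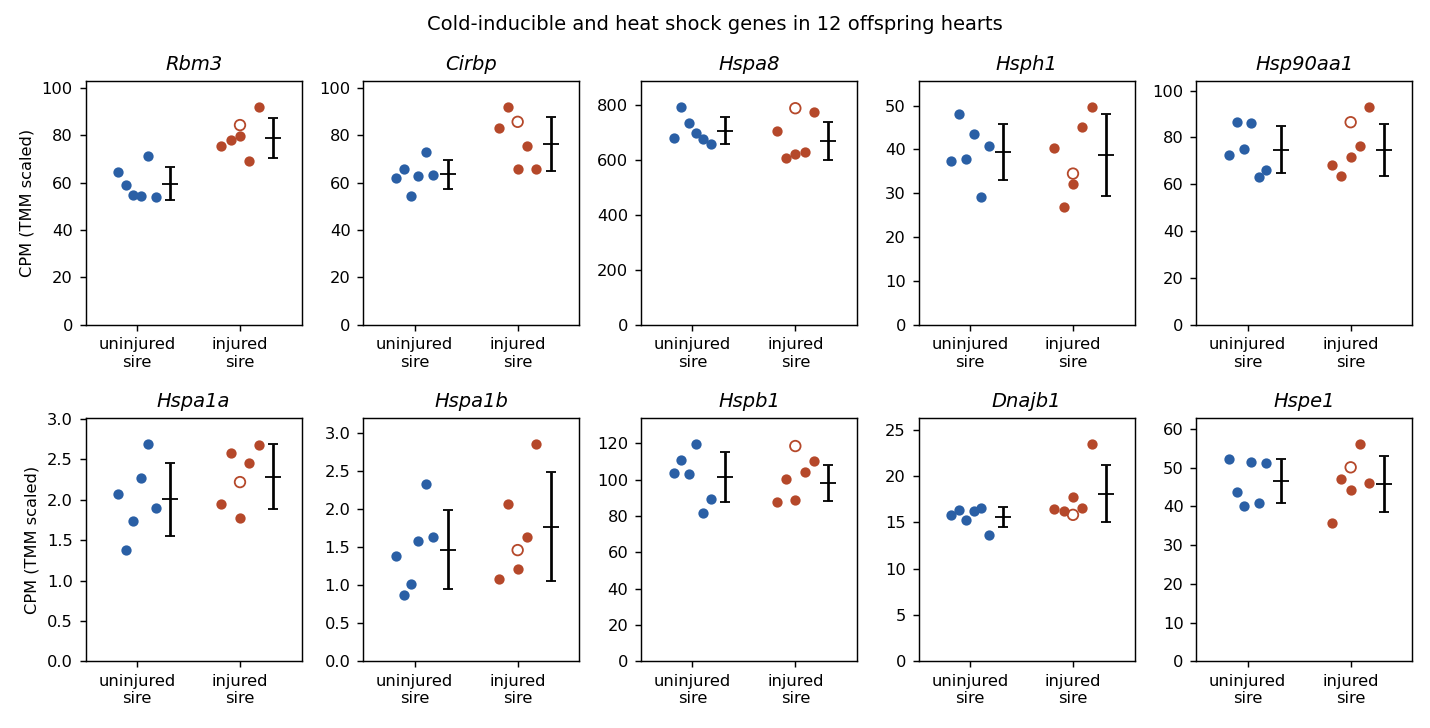
Level of each gene in TMM-scaled CPM (vertical axis, starting at 0) in uninjured-sire (blue) and injured-sire (red) hearts, 1 point per library, with mean and SD as bars over 6 and 5 libraries, and replicate 16 as an open circle outside the mean. Rbm3 in injured-sire hearts sits at 69.1 to 91.9 against 54.0 to 71.2 CPM, and the groups overlap in every panel. For Hspa8, 3 injured-sire points lie below all uninjured-sire points, and for Dnajb1 1 injured-sire point stands apart at 23.5 CPM.

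In the fit without covariates, the heat arm lay around 0. Of its 8 genes, 0 passed over all genes in edgeR (1 of the 8, Dnajb1, had an unadjusted p below 0.05, as did 8.96% of all genes), 3 had a log2 fold change above 0 and 5 below, and the median was -0.01, beside 0.0002 over all genes. The groups overlapped for all 10 members, while they did not overlap for 1.06% of all genes (0.432% with all injured-sire libraries higher and 0.625% with all lower). The 95% intervals of Hspa8 (0.862-fold to 1.04-fold), Hspb1 (0.851-fold to 1.10-fold), Hspe1 (0.849-fold to 1.14-fold) and Hsp90aa1 (0.857-fold to 1.16-fold) left out a difference as large as the 1.32-fold of Rbm3. Those of Dnajb1, Hspa1a and Hspa1b reached 1.33-fold, 1.58-fold and 1.89-fold and did not leave it out. The interval of Hsph1 reached 1.27-fold. All these intervals are from the fit without covariates. With a clock score (defined below) as a covariate, the log2 fold change was 0.37 ± 0.112 for Hsp90aa1 and 0.10 ± 0.0903 for Hspa8 (SE).

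Hspa8 (ENSMUSG00000015656, chromosome 9, 40712280 to 40721383, plus strand) is the constitutive cytosolic HSP70, a housekeeping chaperone that also strips clathrin from vesicles. Its levels were 704, 609, 623, 630 and 774 CPM in injured-sire replicates 12, 13, 14, 15 and 17. In uninjured-sire hearts it ran from 659 to 792 CPM, with a median of 690. Replicates 13, 14 and 15 lay below every uninjured-sire heart and replicates 12 and 17 within their range, and the log2 fold change was -0.08 ± 0.0639 (SE). The left-out replicate 16 also lay within that range, at 788 CPM. With all 12 libraries the log2 fold change was -0.04 ± 0.069 (SE).

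Hsph1 (ENSMUSG00000029657, chromosome 5, 149537752 to 149559841, minus strand), an HSP110 that serves HSP70 as a nucleotide exchange factor, varied more. It stood at 40.4, 26.8, 32.1, 45.0 and 49.6 CPM in injured-sire replicates 12, 13, 14, 15 and 17, against 29.1 to 48.1 CPM (median 39.3). In replicate 16 it was at 34.5 CPM. Injured-sire hearts thus held both the lowest and the highest value, and the log2 fold change was -0.02 ± 0.169 (SE). Its spread within groups, an SD of 0.304 in log2 CPM, exceeded that of 62.8% of genes, while that of Hspa8, 0.122, exceeded only 24.1%.

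Hsp90aa1 (ENSMUSG00000021270, chromosome 12, 110657039 to 110669162, minus strand) encodes the stress-inducible cytosolic HSP90, which matures kinases and steroid receptors. It stood at 68.4, 63.7, 71.6, 76.3 and 92.9 CPM in injured-sire replicates 12, 13, 14, 15 and 17, and at 62.9 to 86.5 CPM (median 73.8) in uninjured-sire hearts. Means were 74.6 ± 11.2 CPM (SD, n = 5) and 74.8 ± 9.87 CPM (SD, n = 6), the closest pair among the members, with a log2 fold change of -0.0048 ± 0.102 (SE). Replicate 16 had 86.5 CPM.

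Hspa1a and Hspa1b (chromosome 17, 35188166 to 35191132 and 35175412 to 35178214, both minus strand) are the classical inducible HSP70 genes, nearly silent without stress. They were the lowest of the members, at 46 to 101 and 29 to 97 counts per library. Hspa1a was at 1.95, 2.57, 1.77, 2.45 and 2.68 CPM in injured-sire replicates 12, 13, 14, 15 and 17, and at 1.38 to 2.69 CPM (median 1.98) in uninjured-sire hearts. Hspa1b was at 1.08, 2.06, 1.22, 1.63 and 2.85 CPM in the same 5 hearts, and at 0.867 to 2.33 CPM (median 1.48) in uninjured-sire hearts. The left-out replicate 16 had 2.22 CPM of Hspa1a and 1.46 CPM of Hspa1b. Replicates 17 and 13 of the injured-sire group and replicate 22 of the uninjured-sire group were high for both genes, and replicate 19 was low for both. Log2 fold changes were 0.19 ± 0.230 and 0.27 ± 0.313 (SE), and without injured-sire replicate 17 that of Hspa1b was 0.03.

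The separate values of this pair are uncertain. Their upstream windows differ at 3 of 250 positions counted back from the start (C-207T, T-204C and T-2G, Hspa1a base first), and 58.8% of the 50-base stretches of the Hspa1a transcript occur unchanged in Hspa1b (GENCODE M21 sequences). Counting left out reads that map to several places, so reads from the shared stretches of this pair would not have been counted, and the levels of both genes are too low by an unknown amount. Hspe1, with 7 named pseudogene copies in RefSeq, and Rbm3, with 1, could be touched in the same way.

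Hspb1 (ENSMUSG00000004951, chromosome 5, 135916773 to 135918417, plus strand) encodes the small heat shock protein HSP27, which binds unfolding proteins and actin and is abundant in heart muscle. It ranged from 87.8 to 110 CPM in the 5 injured-sire hearts, from 81.9 to 120 CPM in uninjured-sire hearts, and stood at 119 CPM in replicate 16. The log2 fold change was -0.05 ± 0.0880 (SE). Hspe1 (ENSMUSG00000073676, chromosome 1, 55127291 to 55130466, plus strand), the mitochondrial co-chaperonin HSP10 that caps HSP60, ranged from 35.7 to 56.1 CPM in injured-sire hearts and from 40.0 to 52.2 CPM in uninjured-sire hearts. Its log2 fold change was -0.02 ± 0.101 (SE), and replicate 16 had 50.05 CPM.

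Dnajb1 (ENSMUSG00000005483, chromosome 8, 84334822 to 84339282, plus strand) encodes the HSP40 that delivers substrates to HSP70. Levels were 16.4, 16.2, 17.7, 16.6 and 23.5 CPM in injured-sire replicates 12, 13, 14, 15 and 17, and 13.7 to 16.6 CPM (median 15.97) in uninjured-sire hearts. Replicate 17 stood apart. In addition, 4 of the 6 uninjured-sire hearts lay below all 5 injured-sire hearts compared, and all 5 exceeded the uninjured-sire median. The left-out replicate 16, at 15.8 CPM, lay below that median. The log2 fold change of 0.21 ± 0.0985 (SE) did not pass over all genes (edgeR adjusted p = 0.541), and without replicate 17 it was 0.10.

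Per kilobase of exon the members spanned a 280-fold range. Over the 11 libraries compared, Hspa8 led at 160 ± 13.9 CPM per kb (SD, n = 11), followed by Hspb1 at 97.0 ± 11.4, and both ranges stood clear of all lower members. Then came Hspe1 (31.3 ± 4.15), Cirbp (26.6 ± 4.11), Hsp90aa1 (19.001 ± 2.54) and Rbm3 (14.6 ± 2.63), each overlapping its neighbour in that order. Hsph1 (5.39 ± 1.03) and Dnajb1 (5.23 ± 0.764) overlapped, as did Hspa1a (0.719 ± 0.146) and Hspa1b (0.572 ± 0.216). Even so, Cirbp exceeded Hsp90aa1 in 11 of 11 libraries. The exon length merges all transcripts of a gene, which lowers the value of genes with long alternative exons: for Rbm3, GENCODE M21 lists 6 coding transcripts, 2 subject to nonsense-mediated decay, 2 with retained introns and 1 other non-coding one, and counts per gene cannot separate them.

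Within groups, some chaperones varied together. Hsph1, Hsp90aa1 and Hspb1 were one such set, with a Pearson r of group-centred log2 CPM of 0.81 between Hsph1 and Hsp90aa1, 0.82 between Hsp90aa1 and Hspb1 and 0.58 between Hsph1 and Hspb1. Without the 2 libraries farthest from the median of the first-named gene, the first 2 values became 0.69 and 0.80. Hspa8 joined Hsp90aa1 at 0.73, which became 0.32 without 2 such libraries. The Hspa1 pair had an r of 0.90 (Spearman rho 0.88), or 0.88 without 2 libraries, and lay at -0.27 to -0.01 against Hspa8, Hsph1, Hsp90aa1 and Hspb1. Those low values join opposite signs: over the 5 injured-sire libraries Hspa1a had an r of 0.94 and Hspa1b of 0.93 with Hspb1, and over the 6 uninjured-sire libraries -0.45 and -0.64. Hspa1b with Hsp90aa1 was likewise at 0.60 and -0.69. Of the 28 chaperone pairs, 8 had an r above 0.5 and 10 were below 0. All of these values are over 11 libraries and carry no test. Centring removed the group means but not sex, and levels of Hsph1 and Hsp90aa1 by Xist counts are given below.

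Between the arms, 10 of 16 pairs were negative, with a median r of -0.16. Cirbp was at -0.57 with Hsp90aa1 (rho -0.60, and -0.53 without 2 libraries) and at -0.46 with Hsph1. Rbm3, by contrast, was at 0.69 with Dnajb1, which became 0.37 without the 2 libraries farthest in Rbm3, and at 0.00 with Hsp90aa1. That 0.00 joined opposite signs, 0.59 over the injured-sire and -0.48 over the uninjured-sire libraries. Hspe1 shares a divergent start with Hspd1, the HSP60 gene (their annotated spans overlap by 112 bp on opposite strands), and both subunits build 1 chaperonin, but their r was -0.49 (rho -0.50, and -0.27 without 2 libraries). Hspd1 averaged 333 ± 17.97 CPM in the 5 injured-sire and 329 ± 18.3 CPM (SD) in the 6 uninjured-sire hearts.

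**Figure D2:**
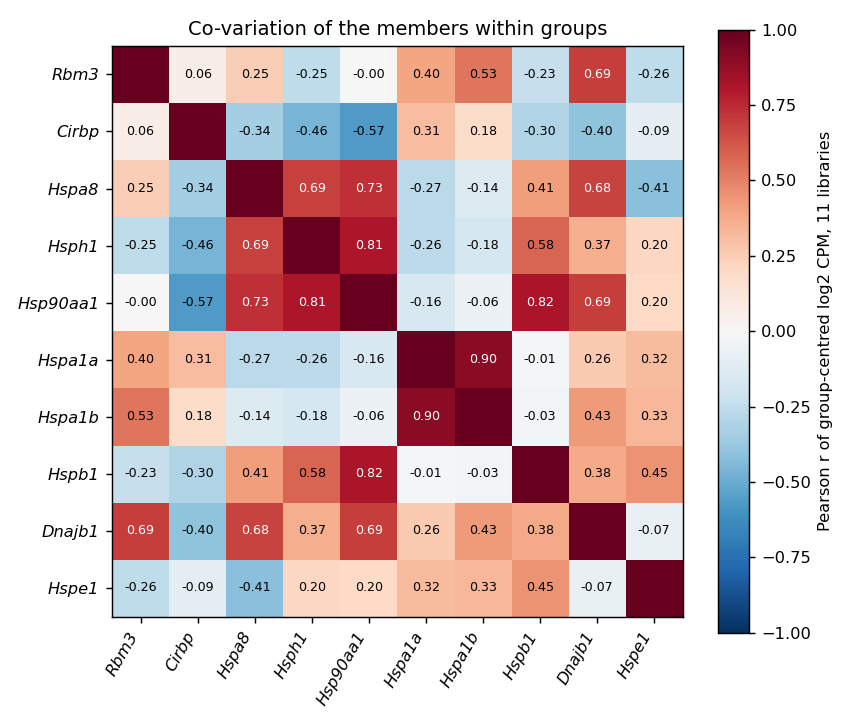
Pearson r between each pair of the 10 genes over 11 libraries, computed on log2 CPM after each group's mean was subtracted, on a colour scale from -1 (blue) to 1 (red). The block of Hspa8, Hsph1, Hsp90aa1 and Hspb1 is red, the Hspa1a and Hspa1b pair forms its own square at 0.90, and Cirbp is blue against all chaperones outside that pair.

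Body temperature and the expression of these genes are known to cycle daily, and the libraries differed in the levels of clock genes. Clock phase itself was not measured, since the labels gave no hour of collection. The clock score, the mean log2 CPM of 9 genes of 1 phase (Dbp, Hlf, Tef, the 3 Per genes, Nr1d2, Ciart, Bhlhe41) less that of Clock, Arntl and Npas2, was 2.33, 2.57, 2.74, 2.36 and 1.09 in injured-sire replicates 12, 13, 14, 15 and 17. It was 0.139 to 0.845 in 5 uninjured-sire libraries and 1.85 in replicate 22. Of a list of 13 core clock and output genes that includes those of the score, 1 passed over all genes in edgeR, beside 0.105% of all genes. In that list 9 lay above 0, beside 50.1% of all genes. Replicate 22, with the highest clock score of its group, also had that group's highest Rbm3, Cirbp, Hspa1a, Hspa1b and Dnajb1, and its lowest Hsph1, Hsp90aa1 and Hspb1. Replicate 17, with the lowest clock score of the injured-sire libraries compared, had their highest Rbm3 and the highest value of every chaperone other than Hspe1, with their lowest Cirbp.

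With group means removed, the clock score had a Pearson r of -0.79 with Hsp90aa1 (rho -0.81), -0.79 with Hspb1 (rho -0.74), -0.71 with Hsph1 and -0.62 with Hspa8 over the 11 libraries. Summed cell markers gave values as large with the same genes: macrophage markers -0.82 with Hsp90aa1 and -0.75 with Hsph1, skeletal muscle markers 0.80 with Hspb1, and cardiomyocyte markers 0.78 with Hspa8. Each was picked as the largest, without regard to sign, of its gene over the cell marker lists. Other members had smaller values with the same lists, such as 0.17 for Hspa8 with skeletal muscle markers, and fat markers were at 0.78 with Hspe1. The skeletal muscle list held 5 genes (Acta1, Myh1, Myh4, Tnnt3 and Ckm), of which only 3 passed the filter on low counts. Which cells supplied its sum was not tested. The clock score had an r of 0.58 with Cirbp (rho 0.60) and of 0.09 with Rbm3 (rho 0.10). Without the 2 libraries farthest in clock score, the values for Hsp90aa1, Hspb1, Hsph1, Hspa8 and Cirbp were -0.57, -0.63, -0.42, -0.42 and 0.25. For Rbm3 the groups went opposite ways, at -0.72 in injured-sire and 0.69 in uninjured-sire libraries. So they did for Hspa1b (-0.73 and 0.65), Hspa1a (-0.58 and 0.47) and Dnajb1 (-0.90 and 0.14). These are descriptions with no test, and the score was defined with these data in view.

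A fit with the clock score as a covariate gave the cold genes unlike estimates, whose difference was not tested. Rbm3 had a log2 fold change of 0.37 ± 0.127 (SE), close to its value without the covariate, though with a larger error (edgeR adjusted p = 0.695). The fit takes 1 slope for both groups, while the r of Rbm3 with the score was -0.72 in injured-sire and 0.69 in uninjured-sire libraries. The Rbm3 estimate therefore cannot show whether Rbm3 follows the score. Cirbp had 0.02 ± 0.124 (SE). Of the 8 chaperones, Hspa1a had a lower estimate than without it (0.13), Hspa1b stayed at 0.27, and 6 had higher ones. These were 0.37 ± 0.112 for Hsp90aa1, 0.30 ± 0.109 for Hspb1, 0.48 ± 0.185 for Hsph1, 0.40 ± 0.147 for Dnajb1, 0.10 ± 0.0903 for Hspa8 and 0.08 ± 0.176 for Hspe1 (SE), none past the threshold. In that fit 0 genes passed over all genes, and 937 had an unadjusted p below 0.05. Since the score nearly separates the groups, whatever it reflects, clock phase included, and sire injury cannot be told apart here.

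**Figure D3:**
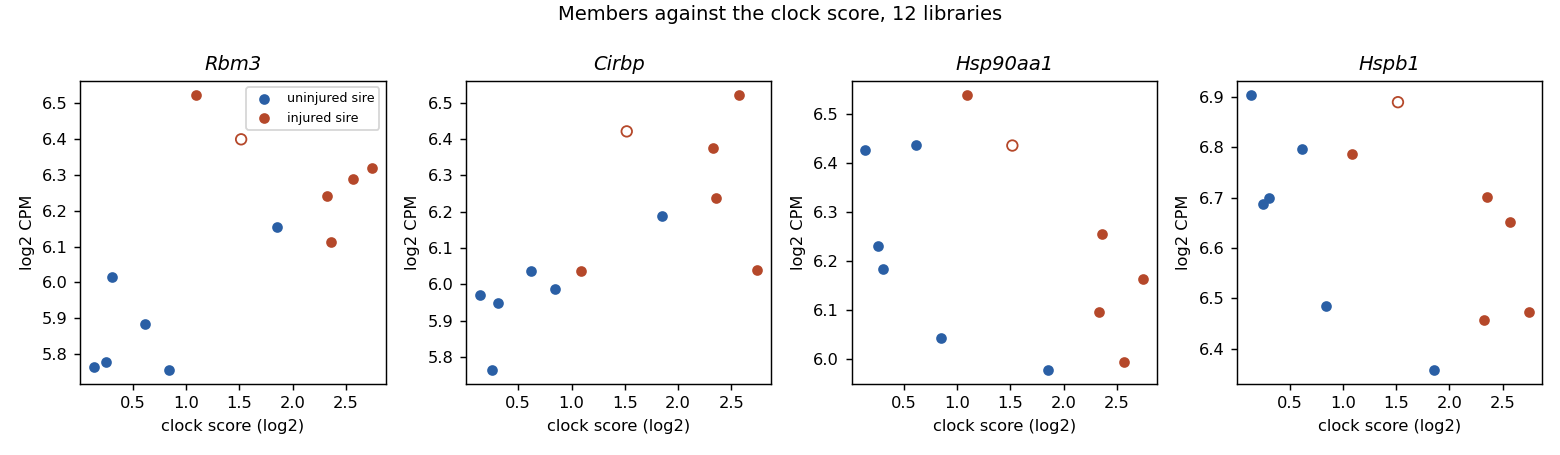
Log2 CPM of Rbm3, Cirbp, Hsp90aa1 and Hspb1 (vertical axes, not starting at 0) against the clock score (horizontal axis, log2 units) in 12 libraries, blue for uninjured-sire, red for injured-sire and open for replicate 16. Hsp90aa1 and Hspb1 tend downward within each colour, with r of -0.79 over the 11 libraries compared, and Rbm3 tends downward among injured-sire (-0.72) and upward among uninjured-sire libraries (0.69).

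Rbm3 is X-linked, and the groups differed in their numbers of males and females. Among the 5 compared libraries with 11656 to 14444 Xist counts, Rbm3 was at 75.6, 69.1 and 91.9 CPM in injured-sire and at 59.0 and 54.3 CPM in uninjured-sire hearts. Among the other 6, with 5 to 100 Xist counts, it was at 78.1 and 79.8 CPM in injured-sire and at 64.6, 54.8, 71.2 and 54.0 CPM in uninjured-sire hearts. The part of sex in the difference was not tested beyond these values and 1 fit. With a sex-linked score as a covariate the log2 fold change of Rbm3 was 0.42 ± 0.0840 (SE), with an edgeR adjusted p of 0.0728. Along the same split, Hsph1 was at 40.4 to 49.6 CPM in the first 5 libraries and at 26.8 to 40.7 CPM in the other 6. Hsp90aa1 was at 68.4 to 92.9 and at 62.9 to 75.0 CPM. With that covariate the log2 fold change was -0.15 ± 0.097 for Hsph1 and -0.06 ± 0.0779 for Hsp90aa1 (SE). The part of sex in the co-variation of the chaperones was not tested.

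The call for Rbm3 rested on narrow margins, although its estimate was steady. With 1 library left out, the log2 fold change ran from 0.34 to 0.46. The gene no longer passed without injured-sire replicate 12 (edgeR adjusted p = 0.0638), 13 (0.153), 14 (0.104) or 17 (0.0906), nor without uninjured-sire replicate 19 (0.083), 20 (0.136), 21 (0.12) or 23 (0.125). It passed with all 12 libraries at 0.42 ± 0.0760 (edgeR adjusted p = 0.0277). Cirbp ran from 0.19 to 0.32 with 1 library left out and passed in 1 of 23 settings, the one without a filter on low counts (edgeR adjusted p = 0.0456).

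**Figure D4:**
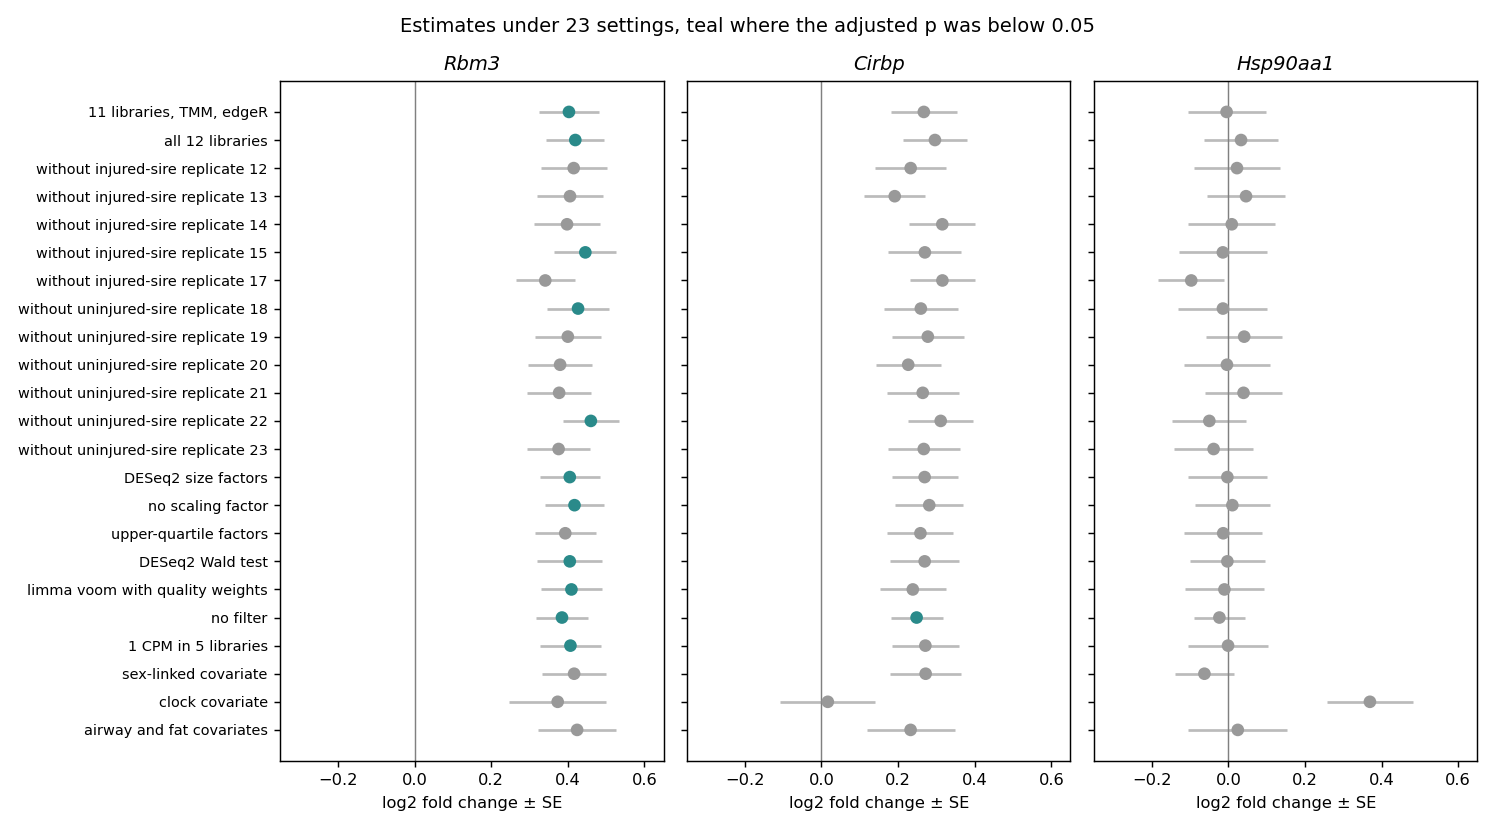
Log2 fold change, injured-sire minus uninjured-sire, with SE, for Rbm3, Cirbp and Hsp90aa1 (panels) under 23 settings of libraries, scaling, test, filter and covariates (rows), in teal where the adjusted p was below 0.05. Rbm3 stays between 0.34 and 0.46 in every row, while the clock covariate takes Cirbp to 0.02 and Hsp90aa1 to 0.37.

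Markers of other cells and states are given beside these values, and no gene of the smooth muscle, fat, airway or immediate early lists passed over all genes in edgeR. Summed over 4 smooth muscle markers (Acta2, Myh11, Tagln and Cnn1), injured-sire hearts had 900 to 999 CPM against 524 to 826 CPM, without overlap. The 8 fat markers summed to 1170 to 1660 against 838 to 1544 CPM, with 8 of 8 log2 fold changes above 0, and the 6 airway markers to 24.7 to 348 against 0.193 to 219 CPM. The 8 immediate early genes, which rise within minutes of handling, summed to 284 to 543 against 319 to 677 CPM, with 1 of 8 above 0. The ranges of these last 3 lists overlapped. None of these lists had a defining marker at 0 throughout. With airway and fat scores as covariates Rbm3 was at 0.42 ± 0.102 (SE, edgeR adjusted p = 0.173) and Cirbp at 0.23 ± 0.115 (SE), and the part of the other lists in these differences was not tested.

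The wider chaperone and RNA-binding network was read from the same fit, as 90 further genes in 10 lists chosen with earlier results of these data known. Of these, 0 passed over all genes in edgeR in either direction, beside 0.105% of all genes tested. An unadjusted p below 0.05 was found for 10 of the 90, beside 8.96% of all genes. Of the 90, 34 lay above 0 (37.8%, beside 50.1% of all genes), with a median log2 fold change of -0.02.

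Among chaperone families, 5 of 11 further HSP70 and HSP110 genes lay above 0, and the smallest p belonged to Hyou1, the HSP110 of the endoplasmic reticulum (-0.18 ± 0.0580), and Hspa2, an HSP70 known from male germ cells (0.31 ± 0.146). Among 13 J-domain genes 5 lay above 0, with Dnaja1 at -0.18 ± 0.0702 and Dnaja4 at -0.17 ± 0.0685. Among 6 small heat shock genes 1 lay above 0. Cryab, the lens and heart muscle crystallin that binds desmin, averaged 749 ± 57.7 CPM in 5 injured-sire and 844 ± 49.4 CPM (SD) in 6 uninjured-sire hearts, or -0.17 ± 0.0564 (SE), and Hspb3 at -0.27 ± 0.178. Like Cirbp, Cryab passed without a filter on low counts (edgeR adjusted p = 0.0364) but not in the comparison itself (0.307).

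Of the 3 other HSP90 genes 1 lay above 0, with Trap1, the mitochondrial HSP90, at -0.05 ± 0.0490 and Hsp90b1, that of the endoplasmic reticulum, at 0.02 ± 0.0582. Chaperonin subunits were the list with the largest share above 0, 7 of 9, with Cct5 at 0.11 ± 0.0548 and Cct2 at 0.07 ± 0.0540, both parts of the cytosolic ring that folds actin and tubulin. Only 3 of 16 co-chaperones and folding helpers lay above 0. The smallest p among them were those of Serpinh1, the collagen chaperone (-0.17 ± 0.0658), and Chordc1, a partner of HSP90 (-0.14 ± 0.0748). Of 16 genes of the unfolded protein response in the endoplasmic reticulum 7 lay above 0, with Manf, a secreted stress factor, at -0.18 ± 0.0875 beside Hyou1.

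Regulators gave values in both directions. Hsf1, the main heat shock factor, averaged 32.3 ± 1.25 CPM in 5 injured-sire and 35.9 ± 2.73 CPM (SD) in 6 uninjured-sire hearts, or a log2 difference of -0.16 ± 0.0683 (SE), and Hsf2 was at 0.15 ± 0.0810. The 4 cold shock domain genes, which encode RNA-binding proteins named after bacterial cold shock factors, all lay below 0, with Ybx1 at -0.11 ± 0.0509 and Carhsp1 at -0.06 ± 0.0699. Of 15 RNA-binding and splicing genes 8 lay above 0. The splicing factor genes Srsf5 and Srsf2 had the smallest p, at 0.17 ± 0.0534 and 0.15 ± 0.0541, and Srsf5 averaged 317 ± 20.1 CPM in the 5 and 283 ± 13.5 CPM (SD) in the 6 hearts, with an edgeR adjusted p of 0.296.

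**Figure D5:**
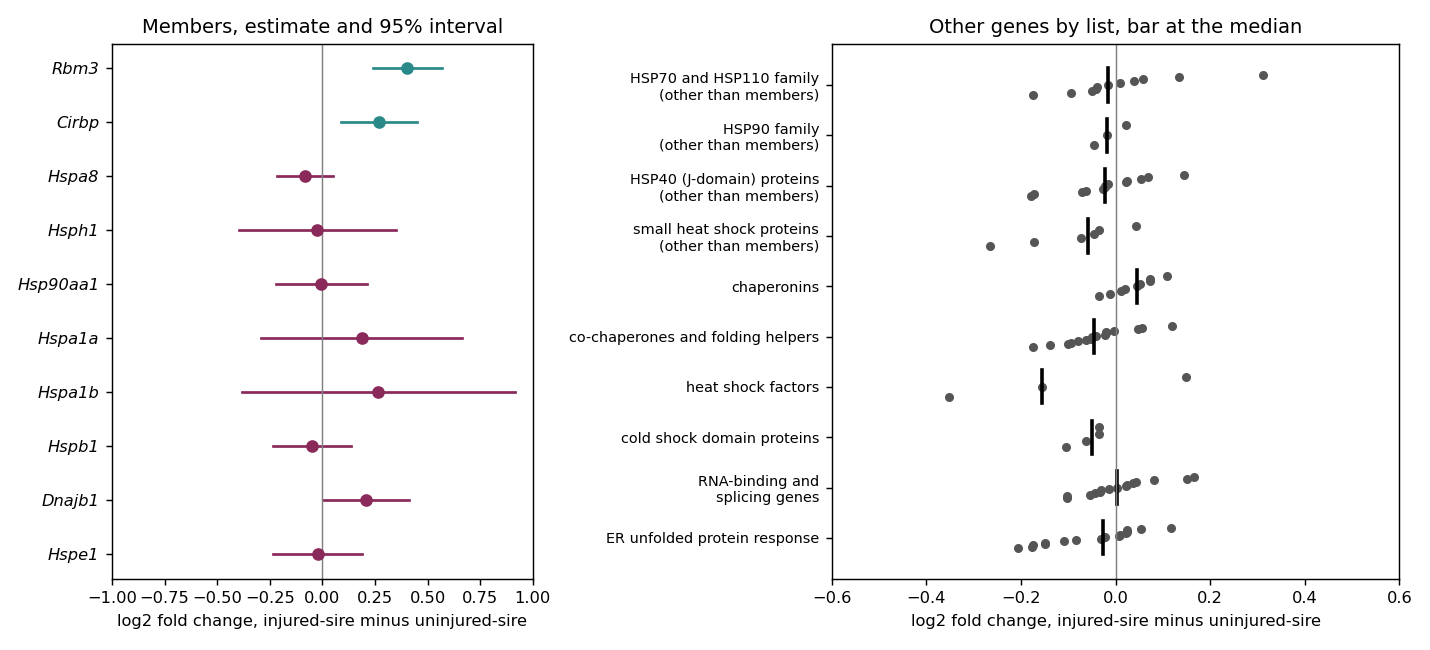
Left, log2 fold change of the 10 members (injured-sire minus uninjured-sire, 11 libraries) with its 95% interval, the cold genes in teal and the chaperones in purple. Right, the same quantity as 1 point for each gene of 10 further lists, with a bar at the list median. The interval of Rbm3 starts at 0.24, that of Cirbp at 0.086 and that of Dnajb1 at 0.005. Those of Hspa8, Hsph1, Hsp90aa1, Hspa1a, Hspa1b, Hspb1 and Hspe1 include 0, and list medians lie between -0.16 and 0.05.

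For 4 of the 10 members (Rbm3, Cirbp, Hspa8 and Hsph1), the genes most like them were ranked by the r of group-centred log2 CPM over the 11 libraries, among 10569 named genes with a mean log2 CPM of at least 2. For Rbm3 they were Cuedc2 (0.87), Slc10a6, Eef1a1, Col27a1 and Idh2 (each 0.84). For Cirbp they were Tmem219 (0.96), Zscan25 (0.89), Sfxn4 (0.88), Slc16a9 (0.87) and Socs3 (0.87). Hspa8 was followed by Pfkm, the muscle phosphofructokinase (0.95), Fbxw11, Sh3pxd2b, Dag1 and Filip1 (0.93 to 0.94), and Hsph1 by Gas8 (0.94), Mmadhc (0.93), Fam214b (0.91), Eef1a2 (0.91) and Cct3, a chaperonin subunit (0.89). In these 4 rankings Hsp90aa1 was number 21 for Hsph1, and Cirbp was number 4643 for Rbm3. These values are the extremes of 10569 correlations over 11 libraries, and none of the 20 genes named here passed the comparison.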

How the data were processed

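The authors deposited 1 table of unnormalized counts, which featureCounts 2.1.1 assigned to genes of Ensembl release 114 on GRCm39, per the file headers (strand setting 2, no option for pairs or multi-mapping reads). STAR 2.7.10a and Subread 2.0.3 appear in the submitters' processing notes. Another 11 sample columns were not used. Symbols of GENCODE M21 matched 51487 of 78317 IDs (99.3% of counts), and coordinates are those of the counted table. Exon length is the deposited length in bases. Chi-square divided by its degrees of freedom was 14.3 to 45.4 in the 30 pairs of libraries within a group, so none repeated another.

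The comparison used edgeR 4.0.16 in R 4.3.3: filterByExpr (minimum count 10, total 15), TMM, robust quasi-likelihood F test, two-sided, Benjamini-Hochberg over 17130 genes. All 10 members passed the filter. SEs were derived from the F statistic, and the prior count for log2 CPM was 2. The scripts were tested on simulated counts. Where named, limma 3.58.1 and DESeq2 1.42.0 served as alternatives. Members, lists, scores and settings were chosen with earlier results of these data known. From each list, genes past the threshold or else the 2 with the smallest p were named, and for likeness the 5 highest r, leaving out predicted, clone and sex-linked names.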

Additional observations from a re-analysis of the deposited data

Results flagged for a closer look

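Dnajb1 in injured-sire replicate 17 stood apart, at 23.5 CPM against 16.2 to 17.7 CPM in the other 4 libraries of its group. The gap to the nearest library was 0.794 of the whole range, past Dixon's 95% critical value. This was 1 of 20 gene and group combinations looked at, and chance alone flags about 1 in 20.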

How the results depend on the processing

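With 1 library left out, the count of called genes ran from 8 to 43 against 18, and the log2 fold change of Rbm3 from 0.34 to 0.46. The count was 134 with the DESeq2 Wald test, which gave 2326 genes no adjusted p, 236 with no filter, 28 with a filter of 1 CPM in 5 libraries, 49 at a threshold of 0.1 and 0 with the clock covariate. Rbm3 kept its direction in all 22 alternatives and its call in 10, and the call was also lost with upper-quartile factors (0.39), the sex-linked covariate (0.42), the clock covariate (0.37) and the airway and fat covariates (0.42). Other members near 0 changed sign, and none of these values passed. With the clock covariate these were Hspa8 (0.10), Hsph1 (0.48), Hsp90aa1 (0.37), Hspb1 (0.30) and Hspe1 (0.0832), with the airway and fat covariates Hspa8 (0.0061), Hsph1 (0.0416) and Hsp90aa1 (0.0244), with all 12 libraries Hsp90aa1 (0.0329) and Hspb1 (0.0013), and with no scaling factor Hsp90aa1 (0.0102). With 1 library left out, Hsph1 ran from -0.13 to 0.0821, Hsp90aa1 from -0.10 to 0.0459, Hspb1 from -0.10 to 0.0061 and Hspe1 from -0.11 to 0.052. Beyond these ranges but without a change of sign lay Hspe1 with the airway and fat covariates (-0.18 ± 0.0969, SE) and Hsph1 with the sex-linked covariate (-0.15 ± 0.097, SE). Where a setting changed a call without fewer samples or other genes tested, the cause was not tested. No paired analysis was possible because no replicate number occurs in both groups. The Hspa1 pair had the fewest counts of the members, 29 to 101 per library.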
